A study of Homo sapiens with 4 samples.

Results

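Small RNA host transcripts are long RNAs whose genes carry the sequences of small nucleolar RNAs (snoRNAs) or microRNAs. They were compared here between cells sorted with and without a GATA2 reporter. Members were the rows whose gene symbol is SNHG and a number, or begins with MIR and ends with HG, together with GAS5, DLEU2, MALAT1, NEAT1 and EPB41L4A-AS1. This gave 33 of the 28285 gene rows: 13 SNHG genes, 15 MIR host genes and the 5 named genes. Rows were picked by symbol and not by a measured value, but the rule was set with earlier results of these data known.

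H1, a human embryonic stem cell line in wide use, was the source of all libraries and carried the genotype GATA2/eGFP knockin, written GATA2w/eGFP in the design text, in both fractions. In it a fluorescent protein reports on GATA2, a transcription factor needed by early blood progenitors. GFP-positive libraries were labelled eGFP+CD34+CD31+CD43- hemogenic endothelium, which can give rise to blood, and GFP-negative libraries eGFP-CD34+CD31+CD43- endothelial cells. The titles and source name call the GFP-negative libraries hemogenic endothelium too. All 4 titles also name Cre, and the labels do not explain the use of Cre, the day of differentiation or the number of knock-in clones. There were 2 libraries of each fraction. Whether these were grown separately is not stated, and p-values here reflect just the spread between libraries, which may be technical. The study asked how the transcriptomes of the fractions differ.

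In a snoRNA host gene the functional small RNA usually lies in an intron and is trimmed from it after splicing, while the spliced exons form a long RNA with little coding capacity. GAS5 and several SNHG transcripts are known to start with a terminal oligopyrimidine tract, to be engaged by ribosomes and to be degraded by nonsense-mediated decay. A primary microRNA transcript is instead cut in the nucleus by Drosha and DGCR8, so its long RNA and its microRNA need not have the same level. MIR17HG carries the miR-17-92 cluster, known for promoting proliferation, and MIR155HG carries miR-155, known in blood and immune cells. NEAT1 is the architectural RNA of paraspeckles, and MALAT1 is an abundant RNA of nuclear speckles. The libraries measured the long transcripts, and mature small RNAs were not analysed here.

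The annotation was set beside the name of the set. On GENCODE v29 (GRCh38), all 33 identifiers were found, and 30 of the 33 genes contained at least 1 small RNA gene on their own strand. In total there were 147 entries, and some loci, such as SNORA16A in SNHG12 and SNORA17B in SNHG7, had more than 1 entry. Of the 147 entries, 115 were snoRNAs or small Cajal body RNAs and 32 were microRNAs. SNHG14, the long transcript of the imprinted Prader-Willi region, held 84 of the 147. The members without one were GAS5, MALAT1 and MIRLET7DHG. For GAS5, RefSeq places 11 snoRNAs within the gene span. The row labelled MIRLET7DHG has an identifier that GENCODE v29 names LINC02603, and its values are those of that transcript. Among the snoRNAs and Cajal body RNAs, 78 lay wholly in introns and 37 overlapped an exon of at least 1 annotated host transcript. For microRNAs the numbers were 15 and 17. A row of TPM values was found by identifier for 15 of the 147 entries, and 13 of these were listed at 0 TPM in every library.

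Chosen mature microRNAs of tested microRNA hosts are shown because they tell which of these hosts share a seed family. Other microRNAs of the members, such as MIR3613 in DLEU2, MIR612 in NEAT1 and those of hosts below the filter, are not shown. The seed, bases 2 to 8, pairs with target messages. All 15 mature sequences below were matched by name in RefSeq (GRCh38.p14), are written 5′ to 3′ and have the seed in capitals.
MIR17HG, hsa-miR-17-5p: cAAAGUGCuuacagugcagguag
MIR17HG, hsa-miR-20a-5p: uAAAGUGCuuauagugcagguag
MIR17HG, hsa-miR-18a-5p: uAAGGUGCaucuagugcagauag
MIR17HG, hsa-miR-19a-3p: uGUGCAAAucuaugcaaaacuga
MIR17HG, hsa-miR-19b-3p: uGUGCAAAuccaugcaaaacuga
MIR17HG, hsa-miR-92a-3p: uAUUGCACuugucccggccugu
DLEU2, hsa-miR-15a-5p: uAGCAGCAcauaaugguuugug
DLEU2, hsa-miR-16-5p: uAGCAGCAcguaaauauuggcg
MIR497HG, hsa-miR-195-5p: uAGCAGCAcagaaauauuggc
MIR497HG, hsa-miR-497-5p: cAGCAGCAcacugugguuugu
MIR155HG, hsa-miR-155-5p: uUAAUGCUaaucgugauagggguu
MIR22HG, hsa-miR-22-3p: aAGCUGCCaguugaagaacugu
MIR210HG, hsa-miR-210-3p: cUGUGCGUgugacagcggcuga
MIR4500HG, hsa-miR-4500: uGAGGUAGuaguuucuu
MIR600HG, hsa-miR-600: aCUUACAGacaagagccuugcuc

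DLEU2 on chromosome 13 and MIR497HG on chromosome 17 carried the same seed, AGCAGCA, in 4 mature microRNAs. Of 2370 mature microRNAs in the RefSeq table, 7 have this seed. Within MIR17HG, miR-17-5p and miR-20a-5p shared AAAGUGC, and miR-19a-3p and miR-19b-3p shared GUGCAAA. The seed of miR-4500, GAGGUAG, is that of the let-7 family and was found in 11 of the 2370.

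The snoRNAs below are examples from SNHG1 and SNHG8, which are among the snoRNA hosts whose GFP-positive libraries stood above the GFP-negative ones. Other snoRNAs of SNHG1 are not shown, nor are those of SNHG3, SNHG12 and SNHG14, which had the same order of libraries. All snoRNAs shown overlap an exon of an annotated transcript of their host. They are written 5′ to 3′ as DNA letters from the GENCODE v29 transcripts on GRCh38. For the box C/D snoRNAs of SNHG1, a class that guides methylation of ribosomal RNA, capitals mark the box C letters TGATGA and the box D letters CTGA. For SNORA24, an H/ACA snoRNA of SNHG8, capitals mark the ACA box, a signature of the snoRNAs that guide pseudouridylation.
SNORD25, chr11:62855564-62855632, minus strand: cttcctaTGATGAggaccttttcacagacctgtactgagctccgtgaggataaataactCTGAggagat
SNORD27, chr11:62855012-62855083, minus strand: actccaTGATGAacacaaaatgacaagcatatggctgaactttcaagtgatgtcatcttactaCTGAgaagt
SNORD30, chr11:62853663-62853732, minus strand: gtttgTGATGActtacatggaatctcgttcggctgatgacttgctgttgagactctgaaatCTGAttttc
SNORA24, chr4:118279190-118279320, plus strand: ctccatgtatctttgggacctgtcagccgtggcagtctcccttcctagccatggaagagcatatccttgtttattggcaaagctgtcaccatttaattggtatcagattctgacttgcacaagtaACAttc

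No host transcript passed the test between the fractions. Levels are in TPM, which corrects for gene length but not for unequal capture of transcripts in library preparation. Comparisons of level between genes here carry that limit. Of the 33 members, 26 reached 1 TPM in 2 or more libraries and were tested with limma on log2(TPM + 1). Of the 26, 0 had a Benjamini-Hochberg adjusted p under 0.05, against 69 of all 15425 genes tested (0.447%; 0.123% higher and 0.324% lower in GFP-positive cells). At an unadjusted p under 0.05 there were 5 of the 26 (4 higher, 1 lower), and 14.1% of all genes (6.69% higher, 7.38% lower). In bulk samples, fewer cells of a type and less RNA per cell cannot be told apart. The median log2 fold change of the 26 was 0.17, with 17 above 0 and 9 below, and that of all genes tested was 0.02, with 51.8% above 0 and 48.2% below. Values ran from -1.01 for SNHG9 to 1.36 for MIR497HG. In 9 of the 26 the libraries of the fractions did not overlap (7 higher, 2 lower in GFP-positive cells), a share of 34.6% against 44.3% of all genes (22.8% higher, 21.5% lower). These counts include MIR497HG, whose place above 0 was set by the filter, since it reached 1 TPM only in the GFP-positive libraries. Over the other 25 members, 8 did not overlap (6 higher, 2 lower), 4 had an unadjusted p under 0.05 (3 higher), 16 lay above 0 and the median was 0.16. With 2 libraries per fraction, an exact permutation test of a single gene cannot go below a two-sided p of 0.333.

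**Figure D1:**
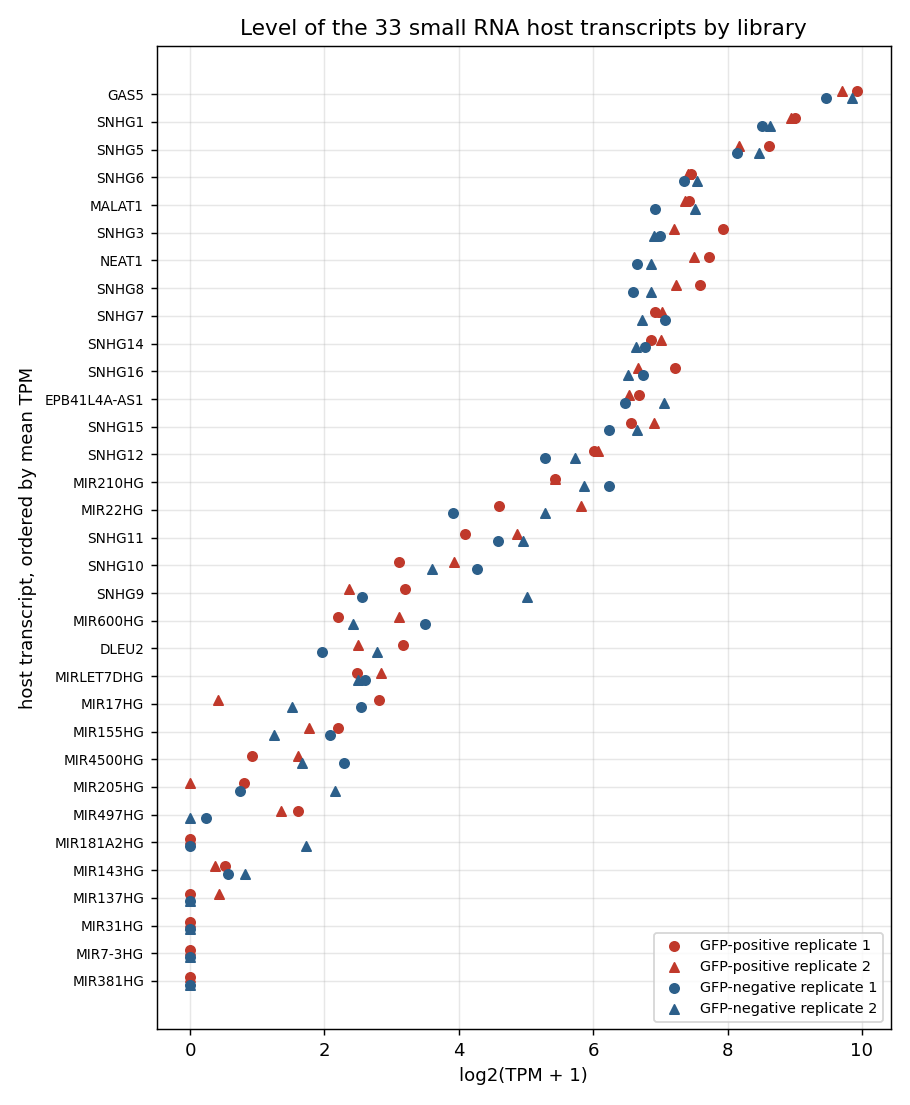
Level of each of the 33 host transcripts in each library, as log2(TPM + 1) on the horizontal axis, ordered by mean TPM; red marks GFP-positive and blue GFP-negative libraries, circles replicate 1 and triangles replicate 2. GAS5 is at the top, SNHG genes fill the upper part, and most microRNA hosts lie at a few TPM or at 0.

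The snoRNA hosts were the abundant members. GAS5, a growth-arrest transcript, was the highest, with 974 TPM in GFP-positive replicate 1, 832 TPM in replicate 2, and 703 and 923 TPM in the GFP-negative pair. Values below keep this order of libraries. It made up 25.8% to 29.2% of the TPM of all members in each library. The fractions overlapped, and the log2 fold change was 0.16 ± 0.17 (SE; 95% interval -0.26 to 0.58; limma adjusted p = 0.754). The members together held 0.365% and 0.323% of TPM in the GFP-positive libraries, against 0.267% and 0.317% in the GFP-negative libraries. After GAS5 came SNHG1 and SNHG5, and the 15 members with a mean above 50 TPM included 12 of the 15 snoRNA hosts. These 15 hosts (13 SNHG genes, GAS5 and EPB41L4A-AS1) had a median of 113 TPM, against 5.13 TPM for the 9 tested microRNA hosts. The latter is the value of the row labelled MIRLET7DHG, which held no annotated small RNA gene on its strand.

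SNHG1 (ENSG00000255717; chromosome 11, 62851988 to 62855914, minus strand), host of a run of box C/D snoRNAs, had 511 and 490 TPM in the GFP-positive libraries. It had 363 and 395 TPM in the GFP-negative libraries. The fractions did not overlap, and replicates lay closer to each other than in any other tested member, with a mean absolute log2 difference of 0.09. The log2 fold change was 0.40 ± 0.12 (SE; limma adjusted p = 0.241), a mean of 501 ± 14.8 against 379 ± 22.7 TPM (SD, n = 2).

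SNHG8 (ENSG00000269893; chromosome 4, 118278709 to 118279823, plus strand) had 191 and 149 TPM in the GFP-positive libraries. It had 95.5 and 115 TPM in the GFP-negative libraries, again without overlap. Its mean was 1.62 times as high in GFP-positive cells, and the log2 difference was 0.68 ± 0.19 (SE; limma adjusted p = 0.204). The fold change of SNHG8 was thus above that of SNHG1, with a wider spread within fractions.

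SNHG3, host of the H/ACA snoRNAs SNORA73A and SNORA73B, had 243 and 146 TPM in GFP-positive cells against 126 and 119 TPM. The fractions did not overlap, but GFP-positive replicate 1 was far above the rest: the log2 difference, 0.61 ± 0.25 (SE; limma adjusted p = 0.356), was 0.25 without that library. SNHG3 also shares exon sequence on the same strand with RCC1, a chromatin-bound exchange factor for the GTPase RAN, and the authors' counting could divide such reads in more than 1 way. RCC1 had 101 and 81.4 TPM against 77.9 and 65.6 TPM (log2 fold change 0.34; limma adjusted p = 0.515).

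SNHG12, which carries several H/ACA snoRNAs and SNORD99, had 63.7 and 66.5 TPM against 37.8 and 52.3 TPM, a log2 difference of 0.54 ± 0.23 (SE; limma adjusted p = 0.365). SNHG14 had 115 and 128 TPM against 108 and 99.0 TPM (0.23 ± 0.16; limma adjusted p = 0.595). In both, the GFP-positive libraries lay above the GFP-negative ones by a small margin. SNHG14 shares exons with SNRPN on its strand and with UBE3A on the other, and SNHG12 with TRNAU1AP on the other strand. The strand setting of the counting is not given in the sources used here, so reads of such partners cannot be told apart. In all, 18 members share exon sequence with another annotated gene, and the limit holds for them too. Among them, on the other strand, are DLEU2 with TRIM13, SNHG10 with GLRX5 and SNHG7 with FAM69B. Each of these named partners had a higher mean TPM than its member in both fractions.

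In the other snoRNA hosts the libraries of the fractions overlapped. SNHG16 had 148 and 101 against 106 and 90.4 TPM, and SNHG15 had 93.8 and 119 against 74.2 and 100.1 TPM. SNHG5, host of SNORD50B, had 391.6 and 288 against 281 and 351 TPM, and SNHG7, host of SNORA17A and SNORA17B, had 120 and 129 against 134 and 105 TPM. Their log2 fold changes lay between 0.07 for SNHG7 and 0.31 for SNHG16. That of SNHG16 was 0.038 without GFP-positive replicate 1, and that of SNHG15, 0.29, was 0.074 without GFP-negative replicate 1.

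SNHG6 had 174 and 169 TPM in the GFP-positive libraries against 162 and 186 TPM, with a log2 fold change of -0.02 and a 95% interval of -0.38 to 0.34. EPB41L4A-AS1, host of SNORA13, had 102 and 92.0 against 88.3 and 131 TPM (log2 fold change -0.15; 95% interval -0.71 to 0.40). These intervals still allow differences in either direction.

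Lower and more variable were SNHG11, SNHG10 and SNHG9. SNHG11 had 16.1 and 28.2 TPM against 23.0 and 29.95 TPM, and SNHG10, host of the Cajal body RNA SCARNA13, had 7.61 and 14.3 TPM against 18.3 and 11.1 TPM. SNHG9, a short transcript that carries SNORA78, had 8.21 and 4.13 TPM against 4.92 and 31.2 TPM. A single library, GFP-negative replicate 2, set its log2 fold change of -1.01 ± 0.83 (SE), which was 0.22 without it.

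**Figure D2:**
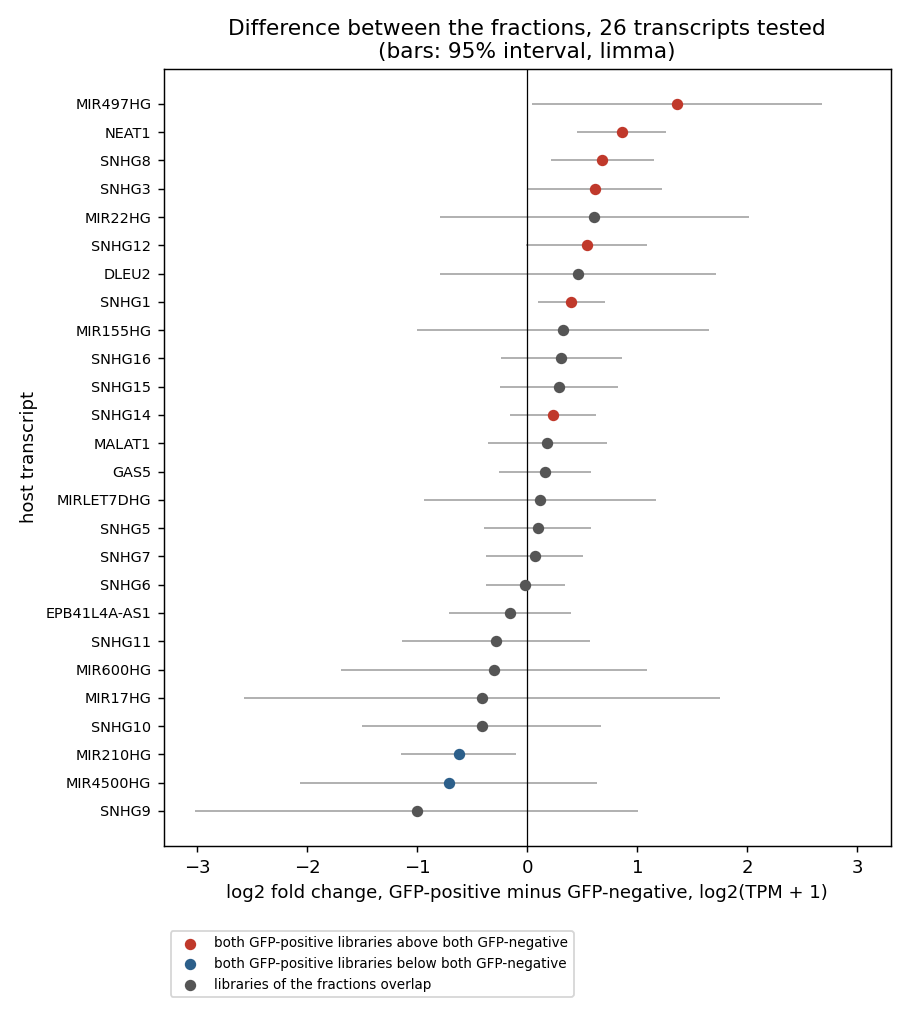
Log2 fold change (GFP-positive minus GFP-negative, on log2(TPM + 1)) of the 26 tested host transcripts, ordered by value; bars are 95% intervals from limma, and colours mark whether the libraries of the fractions overlap. Red points, with both GFP-positive libraries above both GFP-negative libraries, are 7 transcripts, and blue points, with the reverse order, are 2.

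NEAT1 (ENSG00000245532; chromosome 11, 65422774 to 65445540, plus strand) came nearest to the threshold of all members. GFP-positive cells had 211 and 181 TPM, and GFP-negative cells 99.7 and 116 TPM. The fractions did not overlap, with means of 196 ± 21.7 and 108 ± 11.3 TPM (SD, n = 2). The log2 fold change was 0.86 ± 0.17 (SE; 95% interval 0.45 to 1.26), and it did not pass (limma adjusted p = 0.105). With single libraries left out, it stayed between 0.74 and 0.97. In rank of p-value it stood at 300 of the 15425 genes tested.

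MALAT1, which lies on the same chromosome beyond NEAT1 (65497688 to 65506516), had 171 and 164 TPM against 120 and 182 TPM. Its fractions overlapped, and its log2 difference, 0.18 ± 0.22 (SE; limma adjusted p = 0.793), was -0.12 without GFP-negative replicate 1. The NEAT1 and MALAT1 changes were not tested against each other.

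The microRNA hosts had 16 rows (15 MIR host genes and DLEU2), of which 9 were tested. MIR210HG (ENSG00000247095; chromosome 11, 565660 to 568457, minus strand), host of the hypoxia-induced miR-210, was the most abundant, with 42.3 and 42.0 TPM in the GFP-positive libraries. In the GFP-negative libraries it had 74.6 and 57.3 TPM, both above the GFP-positive ones. The log2 fold change was -0.62 ± 0.21 (SE; 95% interval -1.15 to -0.10; limma adjusted p = 0.283). The hairpin gene MIR210 had a row of its own, at 10.1 and 0 TPM against 36.2 and 0 TPM, and so was seen in 1 library of each fraction. Of the hypoxia-responsive factors, HIF1A had 164 and 211 TPM against 222 and 221 TPM, and EPAS1, chosen after its values were seen, had 13.6 and 12.7 TPM against 24.5 and 29.01 TPM. Neither passed (limma adjusted p = 0.580 and 0.222).

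MIR22HG, host of miR-22, differed more between replicates than between fractions. It had 23.1 and 55.2 TPM against 14 and 37.8 TPM, a 2.39-fold and a 2.70-fold gap within fractions. The log2 fold change was 0.61 ± 0.58 (SE; limma adjusted p = 0.713), and leaving out GFP-negative replicate 1 gave -0.077.

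MIR17HG (ENSG00000215417; chromosome 13, 91347820 to 91354579, plus strand), the transcript of the miR-17-92 cluster, had 6.03 and 0.33 TPM in the GFP-positive libraries. It had 4.81 and 1.85 TPM in the GFP-negative libraries. The 18.3-fold gap between GFP-positive replicates was the widest of the tested members, and the fractions overlapped. The log2 fold change of -0.41 ± 0.89 (SE; 95% interval -2.57 to 1.75; limma adjusted p = 0.899) became -1.61 when GFP-positive replicate 1 was left out and 0.79 when replicate 2 was. No direction can be read for MIR17HG.

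Transcription factors known to act on MIR17HG and MIR155HG were set beside them. MYCN, of the MYC family, had 27.7 and 26.4 TPM against 68.3 and 63.6 TPM (log2 fold change -1.26; limma adjusted p = 0.0732, and 0.0462 among genes with a mean above 5 TPM). MYC, chosen after its values were seen, had 94.7 and 75.9 TPM against 41.3 and 53.3 TPM (0.84; limma adjusted p = 0.188). MYB, found in blood progenitors and known to activate MIR155HG, had 59.8 and 58.4 TPM against 13.0 and 8.92 TPM. It was the 1 gene that passed among 16 regulators of host genes in general, HIF1A and EPAS1 included (2.35 ± 0.28, SE, limma adjusted p = 0.0439). With single libraries left out its log2 fold change was 2.1 to 2.6, and it did not pass in those fits. MIR155HG itself had 3.60 and 2.41 TPM against 3.23 and 1.37 TPM, with overlapping fractions (0.32 ± 0.54; limma adjusted p = 0.866).

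Both members matched to the AGCAGCA seed, DLEU2 and MIR497HG, were low. Hosts outside the members, and members without a sequence above, were not matched to seeds, so other hosts of this family are not covered. DLEU2, host of miR-15a and miR-16-1, had 7.97 and 4.67 TPM against 2.91 and 5.87 TPM, with overlapping fractions. MIR497HG (ENSG00000267532; chromosome 17, 7015818 to 7019659, minus strand) had 2.05 and 1.55 TPM against 0.18 and 0 TPM. Its log2 difference, 1.36 ± 0.54 (SE; limma adjusted p = 0.339), was the highest of the members. As said above, the filter fixed its direction. Its exons also overlap C17orf49 on the other strand, which had 152 and 159 TPM against 132 and 151 TPM. The part of this overlap in the difference was not tested.

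The remaining tested microRNA hosts stood at a few TPM. MIR600HG had 3.61 and 7.63 against 10.3 and 4.37 TPM and shares exons with STRBP on its own strand. MIR4500HG, host of a microRNA with the let-7 seed, had 0.90 and 2.06 against 3.91 and 2.18 TPM, without overlap but nearly touching in replicate 2. The row labelled MIRLET7DHG had 4.61 and 6.18 against 5.06 and 4.66 TPM. None of these passed (limma adjusted p = 0.885, 0.640 and 0.945).

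Below the filter were 7 members. MIR31HG, MIR7-3HG and MIR381HG were listed at 0 in all 4 libraries. MIR137HG was above 0 only in GFP-positive replicate 2 (0.35 TPM) and MIR181A2HG only in GFP-negative replicate 2 (2.30 TPM). MIR205HG had 0.74 and 0 TPM against 0.67 and 3.48 TPM. MIR143HG, host of the smooth muscle microRNAs miR-143 and miR-145, had 0.44 and 0.29 TPM against 0.48 and 0.76 TPM. Depth cannot be recovered from TPM, so these zeros cannot be given an upper limit.

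**Figure D3:**
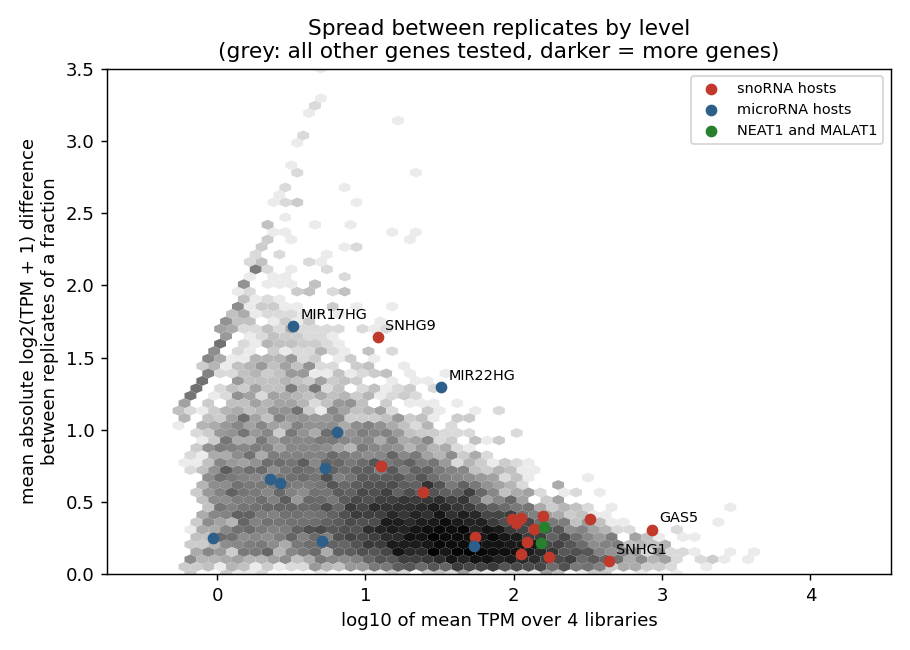
Mean absolute difference between replicates of a fraction, in log2(TPM + 1), against the log10 of mean TPM; grey hexagons are all other tested genes (68 genes above 3.5 are not shown) and coloured points the 26 host transcripts. MIR17HG, SNHG9 and MIR22HG are the highest host transcripts at 1.72, 1.64 and 1.30, while SNHG1 is the lowest at 0.09.

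The spread between replicates was set beside that of other genes. Over all 26, the median of the replicate difference was 0.37 on the log2 scale, the same as over all genes tested (0.37). Among the 15 members above 50 TPM it was 0.31, against 0.22 for the 4093 genes of that level. Among the 7 below 10 TPM it was 0.66, against 0.65. The 4 members between 10 and 50 TPM (MIR22HG, SNHG11, SNHG10 and SNHG9) had a median of 1.02, against 0.36.

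Genes that act with the host transcripts were described from lists, again without a member that passed except MYB above. The lists share genes, so their counts are not independent. For example, EEF2 is among both the protein-coding snoRNA hosts and the genes with terminal oligopyrimidine tracts. NPM1 is among both the latter and the genes of snoRNA particles. Of all genes tested, 51.8% lay above 0 and 0.447% passed in the main fit. Among 21 genes of snoRNA particles and their assembly, 16 lay above 0 and 5 below, with a median log2 fold change of 0.19. TCOF1, a nucleolar factor of ribosomal RNA synthesis, was the highest, with 96.8 and 84.5 TPM against 52.1 and 52.9 TPM (0.77; limma adjusted p = 0.149). NAF1, an assembly factor of H/ACA particles, was the lowest, with 28.4 and 9.57 TPM against 22.6 and 24 TPM (-0.46; limma adjusted p = 0.759), and it was 0.28 without GFP-positive replicate 2. Protein-coding genes that host snoRNAs in their introns had a median of 0.31, and 26 of 27 lay above 0. The count above 0 was 26 with upper quartile scaling and 24 to 26 with single libraries left out. In the main fit 0 of the 27 passed. With a block for replicate number 1 did, in a fit where 596 of all 15425 genes passed. WDR43, a factor of ribosome assembly, was the highest and had 115 and 72.3 TPM against 60.01 and 36.4 TPM (0.95; limma adjusted p = 0.282). EEF2, the translocation factor of translation, was the lowest at -0.04 (limma adjusted p = 0.948). The 15 non-coding snoRNA hosts had a median of 0.16, with 10 above 0 and 5 below, and their position against the protein-coding hosts was not tested.

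Of 22 other genes with terminal oligopyrimidine tracts, 12 lay above 0 and 10 below, with all values between -0.19 and 0.21 (11 above 0 with upper quartile scaling). Among 16 genes of nonsense-mediated decay the median was 0.10, and 15 lay above 0 (13 with upper quartile scaling and 12 or 13 with single libraries left out). UPF3B, a core decay factor, was the highest and had 21.5 and 16.8 TPM against 10.2 and 10.2 TPM (0.84; limma adjusted p = 0.327), and SMG5, which acts on the decay factor UPF1, was the lowest at -0.02 (limma adjusted p = 0.972). Among 14 paraspeckle proteins the median was 0.10, and PSPC1, a partner of NEAT1, was the highest with 90.1 and 82.8 TPM against 61.6 and 73.7 TPM (0.35; limma adjusted p = 0.460). HNRNPK, an RNA-binding protein, was the lowest at -0.11 (limma adjusted p = 0.763). All 14 had fold changes below that of NEAT1, and the difference was not tested.

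Among 22 genes of microRNA processing and Argonaute function, 15 lay above 0 and 7 below, with a median of 0.14. RAN, the GTPase that powers nuclear export, was the most abundant, with 1227 and 1023 TPM against 1079 and 950 TPM. The extremes were EIF2C4, the gene of Argonaute 4, at 0.59 and TNRC6C, a partner of Argonaute, at -0.62 (limma adjusted p = 0.544 and 0.677). EIF2C4 was at 0.18 without GFP-positive replicate 2, and TNRC6C at -0.044 without GFP-negative replicate 1. Protein-coding microRNA hosts had a median of -0.06 over 28 genes, with 12 above 0. EGFL7, the endothelial host of miR-126, had 1641 and 1681 TPM against 2181 and 2123 TPM (-0.37; limma adjusted p = 0.214). SLIT3, host of a copy of miR-218, had 2.26 and 3.05 TPM against 11.4 and 5.80 TPM (-1.34; limma adjusted p = 0.319), and MEST, the imprinted host of miR-335, had 119 and 211 TPM against 68.3 and 107 TPM (0.89; limma adjusted p = 0.322, with 0.47 as the fold change without GFP-positive replicate 2).

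**Figure D4:**
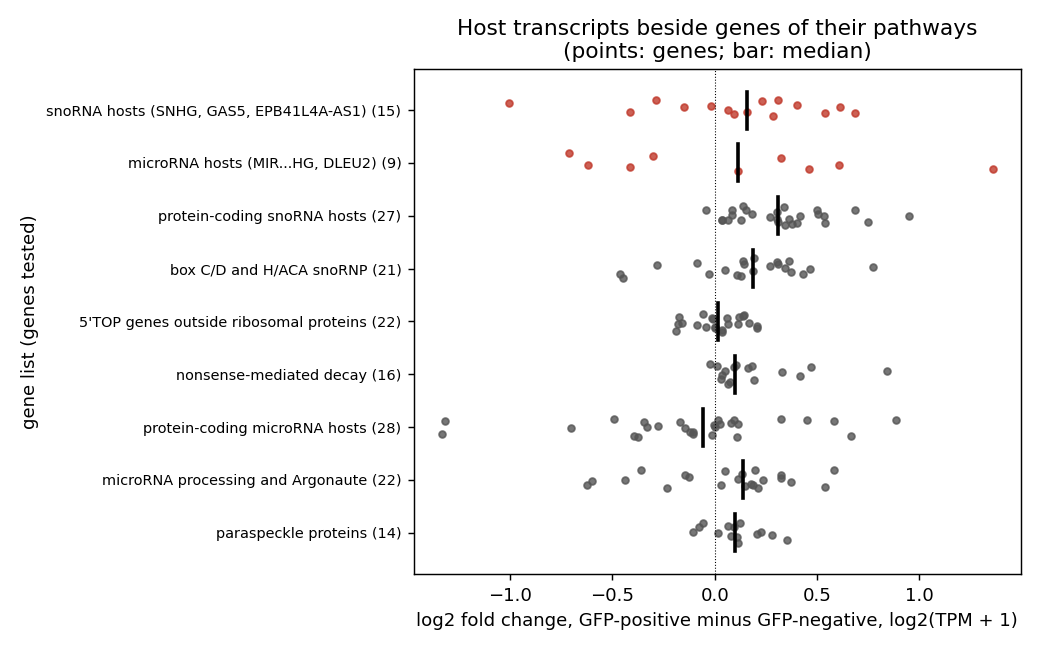
Log2 fold change (GFP-positive minus GFP-negative) of each tested gene in the snoRNA and microRNA hosts (red) and in 7 lists of related genes (grey); black bars are medians and the number of genes is in brackets. NEAT1, MALAT1, the regulators and the marker lists are not drawn; medians of the groups shown lie between -0.06 for protein-coding microRNA hosts and 0.31 for protein-coding snoRNA hosts, and no point shown passed the test.

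Cell type markers were set beside the host transcripts, and their part in the values above was not tested. Of the tested markers, 4 passed: CD34, a gate marker, was lower in GFP-positive cells (-1.29), and GFI1 and MYB, hematopoietic factors, and HBG2, a fetal globin, were higher (2.33, 2.35 and 4.36). The limma adjusted p was 0.0316 for CD34, GFI1 and HBG2, and HBG2 may share reads with its near-identical copy HBG1. CD34 did not pass when GFP-positive replicate 1 (adjusted p = 0.0504) or GFP-negative replicate 1 (0.0909) was left out of the limma fit. The summed TPM of 10 endothelial markers was 4096 to 4341 in the GFP-positive libraries and 6708 to 7212 in the GFP-negative ones, and all 10 had log2 fold changes below 0, of which 1 passed. The sum of 8 hematopoietic markers was 420 to 559 against 161 to 196 TPM, with 6 of 8 above 0, of which 2 passed. RUNX1 and GFI1 made up most of this sum in each library. LCP1, the lowest of the 8, had 2.82 and 3.88 against 5.68 and 5.60 TPM (log2 fold change -0.62, limma adjusted p = 0.608). The sum of 13 erythroid markers was 271 to 465 against 68.8 to 77.7 TPM, with 10 of the 10 tested above 0, of which 1 passed, and AHSP at 0 in all libraries. HBG1 reached the filter only through GFP-positive libraries, and without a filter 11 lay above 0 and 1 below. In the remaining lists 0 passed in limma. Mesenchymal markers summed to 1456 to 1563 against 697 to 933 TPM, with 6 of 7 above 0, and megakaryocyte markers to 123 to 145 against 70.0 to 82.9 TPM, with 4 of 5 tested above 0 and PPBP at 0. Myeloid markers summed to 34.6 to 41.8 against 28.1 to 35.3 TPM, with 3 of 4 tested above 0 and ELANE at 0. Pluripotency markers summed to 85.2 to 96.8 against 96.3 to 104 TPM, with 1 of 4 tested above 0. DPPA4 made up most of each of these sums (89.5 and 74.8 against 81.6 and 92.3 TPM). ZFP42, the 1 above 0, had 5.61 and 7.88 against 1.57 and 4.69 TPM (limma adjusted p = 0.489). POU5F1, the lowest, had 0.93 and 0.03 against 9.68 and 5.88 TPM (limma adjusted p = 0.131). It reached the filter only through GFP-negative libraries.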

How the data were processed

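The authors deposited 1 table of TPM values per library, for 4 libraries prepared by TruSeq from Trizol RNA, per the labels' protocols. The submitters' processing notes name Bowtie, RSEM, hg19 and mm10 without versions or roles. No annotation, strand setting or parameter is named in the sources used here. The file headers name the library and not the unit. TPM was taken from RSEM and from sums of 996324 to 997293 per library, so some genes are not among the rows. Depth is unknown.

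Groups and replicate numbers came from the titles. Genes that reached 1 TPM in 2 or more libraries were tested with limma 3.58.1 (R 4.3.3) on log2(TPM + 1) with a variance trend, two-sided, with Benjamini-Hochberg adjustment over all 15425 genes. For low genes this scale makes fold changes too small. The fit was tested on simulated data with changes larger than those of the members, so that test does not bear on smaller differences. Members and the 15 gene lists were chosen with earlier results of these data known. Genes of a list could be named if they passed, had its highest or lowest fold change or its highest mean, or, for markers, were at 0 in all libraries; not all of these are named. MYC, EPAS1 and HBG1 were chosen after their values were seen. Partner genes on shared exons were named for the overlap. For a repeated symbol in a list the row with the highest mean was used. Coordinates are from GENCODE v29 on GRCh38, matched by identifier, and are not those of the authors' build. MicroRNA sequences are from RefSeq (GRCh38.p14). Tables and figures were made with Python, pandas and matplotlib. There were 10 alternatives: another pseudocount (0.1), no filter, a mean above 5 TPM, no variance trend, upper quartile scaling, leaving out each library, and a block for replicate number.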

Additional observations from a re-analysis of the deposited data

How the results depend on the processing

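The count of host transcripts that passed was 0 under 9 of the 10 alternatives. With the replicate number as a block it was 1: NEAT1, with a limma adjusted p of 0.0252. With the block MYCN, WDR43 and MEST passed too (0.0192, 0.0316 and 0.0208). The same block raised the count over all genes from 69 to 596. Same-numbered libraries hardly deviated together (Pearson's r of 0.0719 across genes), so the numbers are not known to pair the libraries. The count over all genes was 0 in limma with 0.1 as the pseudocount, 0 without a filter and 0 without a variance trend; the numbers under an unadjusted p of 0.05 were then 2101, 2230 and 2072. It was 164 with a mean above 5 TPM, and 18 to 65 with single libraries left out. The median of the host transcripts stayed between 0.09 and 0.21. NEAT1, SNHG1, SNHG3, SNHG8, SNHG12 and MIR210HG were among 13 members that kept their sign under each alternative in which they were tested. These 13 include MIR497HG, whose sign the filter fixed and which was tested in 7 of the 10, and MIR4500HG, tested in 9. The other 13 changed sign with some library left out. Their values then ran from -0.44 to 0.13 for EPB41L4A-AS1, from -0.036 to 0.36 for GAS5, from -0.12 to 0.48 for MALAT1, from -0.095 to 0.74 for MIR155HG, from -1.61 to 0.79 for MIR17HG, from -0.077 to 1.29 for MIR22HG, from -0.83 to 0.23 for MIR600HG, from -0.062 to 0.29 for MIRLET7DHG, from -0.67 to 0.10 for SNHG11, from -0.13 to 0.32 for SNHG5, from -0.11 to 0.079 for SNHG6, from -0.11 to 0.24 for SNHG7 and from -2.23 to 0.22 for SNHG9. Of other genes named, NAF1 (-1.20 to 0.28), EEF2 (-0.21 to 0.13) and SMG5 (-0.11 to 0.059) also changed sign. The cause of these shifts was not tested. MYB, CD34, GFI1 and HBG2 did not pass with 0.1 as the pseudocount, without a filter or without a variance trend (MYB 0.0699, 0.0810 and 0.133).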
